A study of Mus musculus with 4 samples.

Results

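The P2 stromal cells of the lung were compared with the P2 stromal cells of fat. P2 is a population sorted from C57BL/6 mice as CD45-negative, Ter119-negative and Tie2-positive cells that carry PDGFRa and not CD31, with low CD105 and high Sca1. The gate was the same for both tissues, and the labels name no other treatment, allele or time. Members were the barcodes of the lung and fat P2 libraries with at least 1000 unique molecular identifiers (UMIs, counts of captured RNA molecules), at least 500 genes and at most 10% mitochondrial UMIs. Barcodes with 2 or more UMIs summed over Pecam1, Cdh5, Cldn5, Epcam and Ptprc, markers of endothelial, epithelial and immune cells, were dropped. This kept 1401 of 2860 lung barcodes and 7758 of 9025 fat barcodes, 9159 cells of the 16973 barcodes in the study's 4 libraries. The other 2 libraries are labelled as the P1 population (CD31-positive, PDGFRa-negative) of the same tissues and were not used for the comparison. There was 1 library per tissue. Age, sex and number of animals are not given in the labels, and each difference describes these 2 libraries with no replicate check.

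PDGFRa marks fibroblasts and their progenitors in most mouse tissues. In the lung, PDGFRa-positive fibroblasts of the alveolar wall support the epithelium and its capillaries, store retinoids and contribute elastic fibres, while adventitial fibroblasts lie in the cuffs around vessels and airways. In fat, PDGFRa-positive, Sca1-positive cells include adipocyte progenitors: Dpp4-positive cells of the connective tissue between the lobules, and preadipocytes closer to the differentiated adipocyte. CD45 is a leukocyte protein, Ter119 an erythroid antigen, Tie2 (gene Tek) the receptor of the angiopoietins, and Sca1 the surface protein encoded by Ly6a.

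The kept lung cells held 3597375 UMIs in all, with a median of 2118 UMIs and 1186 genes per cell. The kept fat cells held 42624870 UMIs, with a median of 5149.5 UMIs and 2098 genes. Levels are given in CPM (UMIs of a gene scaled to a library sum of 1e6). Folds against a library with no count were taken against 3 counts, which are 0.834 CPM in lung and 0.0704 CPM in fat. RNA classes differed too: ribosomal protein genes took 4.38% of UMIs in lung and 13.7% in fat, mitochondrial genes 4.36% and 2.95%, and Malat1, a nuclear RNA, 6.71% and 4.09%. Gm42418, an annotated transcript that overlaps ribosomal RNA sequence, stood at 55261 CPM in lung and 10298 in fat. A recount with mitochondrial and ribosomal protein genes out of the library sum is given at the end. Beyond it, the part of these classes in the gene differences was not tested. The 2 libraries shared 5 barcodes, of which 1 was kept in both. Intervals below are exact 95% intervals (Poisson for CPM, Clopper-Pearson for shares of cells) and cover counting error only.

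Fibroblast markers had the highest sum of the marker lists in both libraries. All 12 stood at 25 CPM or more in each, and they summed to 15922 CPM in lung and 44443 CPM in fat. All 12 also stood at 100 CPM or more in fat clusters led by genes of epithelial, B or Schwann cells. In fat, this level alone therefore does not set fibroblasts apart. Endothelial markers summed to 17.8 and 16.3 CPM, mammary and other epithelial markers to 8.62 and 11.96 CPM, neutrophil markers to 4.17 and 0.328 CPM, and mast cell markers to 2.78 and 1.10 CPM. Lymphatic endothelial markers summed to 0.556 CPM in lung, where 4 of 6 were at 0, and 1.95 in fat. Low sums of endothelial, epithelial and immune markers are not independent of the choice of barcodes. That choice used Pecam1, Cdh5, Cldn5, Epcam and Ptprc, and dropped 35 lung and 140 fat barcodes that passed the other limits. Several marker lists differed between the libraries. Alveolar epithelial markers summed to 4235 CPM in lung (7 of 12 at 25 CPM or more) and 11.2 CPM in fat, macrophage markers to 396 and 5.02 CPM, with 6 of 10 at 0 in lung, and erythroid markers to 281 and 5.75 CPM. Mesothelial markers summed to 178 CPM in lung and 29.9 in fat, B and plasma cell markers to 95.3 and 20.2, satellite cell markers to 80.6 and 12.5, and adipocyte markers to 73.4 and 2.16. In each of these lists, and in the macrophage list, only 1 marker stood at 25 CPM or more in lung. In lung 4 of 6 satellite cell markers and 6 of 8 adipocyte markers were at 0. Mural cell markers summed to 528 CPM in lung, where 7 of 10 stood at 25 CPM or more. In fat they summed to 1049 CPM, but only 1 of 10 stood at 25 CPM or more. The fat library had the higher sum for Schwann cell markers (81.8 against 20.01), platelet markers (26.8 against 4.45), T or NK cell markers (19.8 against 0.556) and skeletal muscle markers (8.75 against 3.06). Beyond a recount without some clusters of other cell types, given at the end, their part in the differences between the libraries was not tested. In the unused P1 libraries, alveolar epithelial markers summed to 1540 CPM under the label fat and 467 under the label lung, where Sftpc was at 0. Mammary and other epithelial markers summed to 35.9 CPM under the label fat and 438 under the label lung. These sums went against the tissue labels of P1, which were not checked further.

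Both libraries held cells with Xist, the RNA of the inactive X chromosome, and cells with Y-linked RNA (Ddx3y, Eif2s3y, Kdm5d or Uty). In lung 958 cells had Xist alone, 147 had Y-linked UMIs alone and 15 had both. In fat the counts were 6175, 425 and 191. Cells with Y-linked UMIs alone made up 13.3% (11.4 to 15.4) of the cells with 1 kind in lung and 6.44% (5.86 to 7.06) in fat. Xist stood at 1047 CPM in lung and 833 in fat, and Ddx3y at 28.4 and 12.2. The comparison repeated within the Xist cells called 345 genes higher in lung and 225 in fat, of which 338 and 210 were calls of the whole libraries.

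The RNA of the gate genes followed the gate in part. Pdgfra (chr5:75152292-75198215) stood at 1871 CPM (1827 to 1916) in lung and 452 CPM (446 to 458) in fat, a log2 ratio of 2.03. That ratio is the log2 of the lung CPM over the fat CPM after 10 CPM are added to both, so that positive values are higher in lung. The Pdgfra ratio came to 1.59, under 4-fold, with the trimmed mean of M-values (TMM), another scaling of the libraries. It was at least 4-fold in 11 of 16 alternative settings that kept the 4-fold rule. Ly6a (chr15:74994877-74998031) stood at 97.3 CPM (87.4 to 108) in lung and 1940.3 CPM (1927 to 1954) in fat (log2 ratio -4.18), although both gates required high Sca1. Tek (chr4:94739289-94874976) stood at 9.73 CPM (6.78 to 13.5) in lung and 166 CPM (162 to 169.9) in fat (log2 ratio -3.16, and -1.78 when no barcodes were dropped for marker UMIs). Eng, which encodes CD105, was level at 48.9 CPM in lung and 45.7 in fat (log2 ratio 0.08). Pecam1 stood at 1.67 CPM in lung and 0.587 in fat, and Ptprc at 0 and 0.352, but the choice of barcodes used both genes.

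Per cell, the gate genes gave the same order. Every cell was thinned to 2000 UMIs, which left 749 lung cells and 7068 fat cells. Pdgfra was then seen in 86.6% (84.002 to 89.003) of lung cells and 54.2% (53.03 to 55.4) of fat cells, against 85.8% and 77.9% unthinned. Ly6a was seen in 6.14% (4.53 to 8.11) of lung cells and 85.3% (84.5 to 86.2) of fat cells (5.92% and 88.9% unthinned), and Tek in 1.34% (0.642 to 2.44) and 26.6% (25.6 to 27.6) (2.14% and 49.3% unthinned). The lung cluster led by alveolar epithelial genes, with 15 cells and a median of 3633 UMIs, showed Pdgfra in 26.7% of its cells and Ly6a and Tek in 0. In fat, the cluster of 29 cells led by mammary epithelial genes such as Krt8 and Krt18, with a median of 3182 UMIs, showed Pdgfra in 69.0% of its cells, Ly6a in 79.3% and Tek in 31.0%. The fat shares of these 3 genes were thus not set apart from those of a cluster led by genes of another cell type, and how far free RNA or joined cells entered them was not tested.

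Of 6101 genes with a mean of 25 CPM or more over the 2 libraries, 354 were at least 4-fold higher in lung P2 (5.8% of those counted) and 214 at least 4-fold higher in fat P2 (3.51%), 9.31% in all. The median log2 ratio of all 6101 genes was 0.15, with quartiles at -0.40 and 0.63, and 4569 genes (74.9%) lay within 2-fold. Differences over 16-fold were found for 62 genes in the direction of lung and 36 in the direction of fat. Lung genes made up 62.3% of the calls. TMM scaling, which lowered the median of all genes to -0.24, gave 263 genes higher in lung and 364 in fat, so that lung genes made up 41.9%. All 263 were among the 354 lung calls, and the other lung calls were lost. Single genes were followed through the alternative settings only where the naming rules given below picked them. A call given without such a limit was therefore not always checked. Ribosomal protein genes were among the genes on the fat side: 83 of 85 counted had a log2 ratio under 0, with a median of -1.58, though only 4 reached 4-fold.

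**Figure D1:**
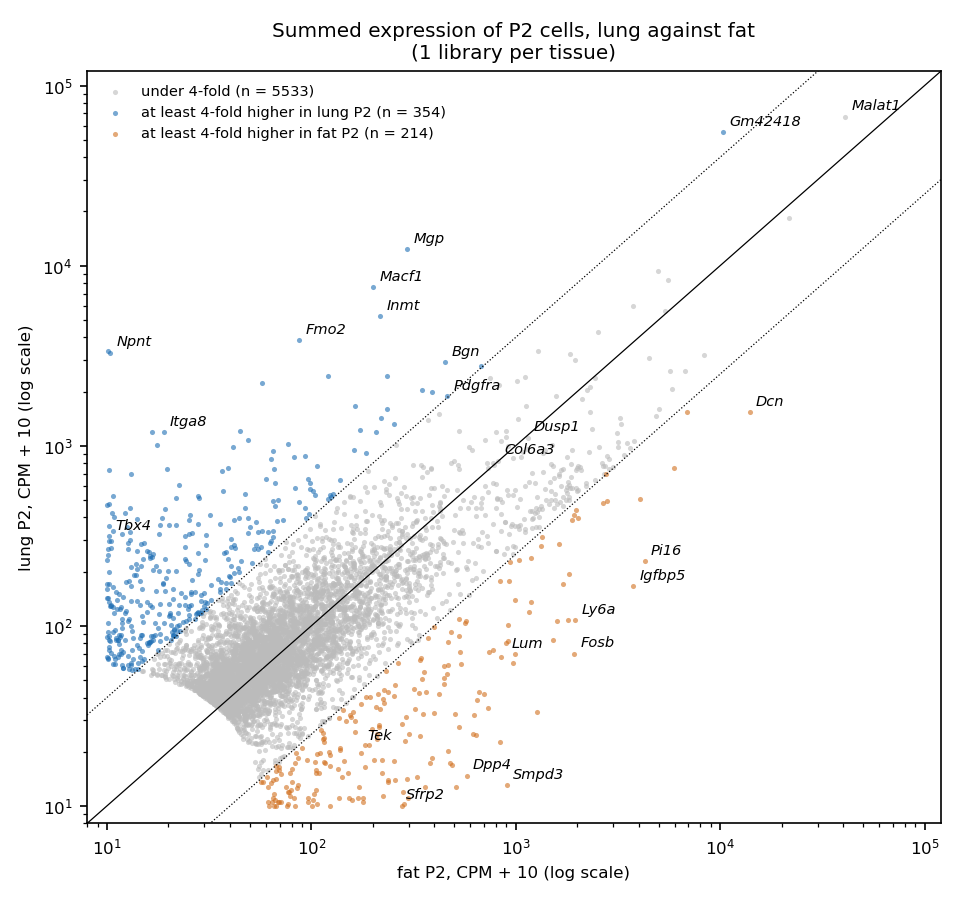
Summed expression of 6101 genes in P2 cells of lung (y axis) and fat (x axis), each as CPM plus 10 on a log scale, 1 point per gene. Solid line, equal levels. Dotted lines, 4-fold. The 354 genes at least 4-fold higher in lung are blue and the 214 at least 4-fold higher in fat are orange; Npnt lies at the left edge with 0.352 CPM in fat, and Dcn at the right with 13910 CPM in fat.

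The leading lung genes named here ranged in fat from close to no counts, as for Npnt, to 284 CPM for Mgp. Npnt (chr3:132881745-132950291) encodes nephronectin, a basement membrane ligand of integrin alpha 8, and Itga8 (chr2:12106632-12301922) encodes that integrin subunit. Npnt stood at 3275 CPM (3216 to 3335) in lung and 0.352 CPM (0.197 to 0.5804) in fat, a log2 ratio of 8.31. Itga8 stood at 1182 CPM (1147 to 1218) in lung and 8.94 CPM (8.06 to 9.88) in fat, a log2 ratio of 5.98. The ligand and the receptor subunit were therefore both lung genes here. Mylk (chr16:34745210-35002420), the kinase of myosin light chains, stood at 1188 CPM in lung and 6.55 in fat (log2 ratio 6.18). Mgp, the matrix Gla protein that binds calcium, was the most abundant of the leading genes with 12326 CPM (12211 to 12441) in lung and 284 CPM (279 to 289) in fat (log2 ratio 5.39). Macf1 (chr4:123349633-123684360), a linker of microtubules and actin, stood at 7588 CPM in lung and 191 in fat (log2 ratio 5.24). Lrat (chr3:82892579-82903973), the enzyme that turns retinol into its storage ester, stood at 515 CPM in lung and 0.727 in fat (log2 ratio 5.61). The genes Nebl, Scn3a and Cacna1d have known roles in muscle or excitable cells. Nebl encodes a nebulin-like protein of muscle and stood at 719 CPM in lung and 0.211 in fat (log2 ratio 6.16). The sodium channel gene Scn3a stood at 465 CPM in lung and 0.188 in fat (log2 ratio 5.54) and the calcium channel gene Cacna1d at 415 CPM in lung and 0.633 in fat (log2 ratio 5.32). Fmo2, the flavin-containing monooxygenase of lung, stood at 3856 CPM in lung and 77.4 in fat (log2 ratio 5.47). Cdo1, cysteine dioxygenase, stood at 686 CPM in lung and 3.14 in fat (log2 ratio 5.73), Lbh, a transcription cofactor of limb and heart development, at 1005 CPM in lung and 7.62 in fat (log2 ratio 5.85), and Mfap4, a microfibril-associated protein, at 2216 CPM in lung and 47.7 in fat (log2 ratio 5.27).

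Sftpc and Sftpa1, surfactant protein genes of the alveolar epithelium, also stood among the 15 highest ratios. Sftpc stood at 3342 CPM (3283 to 3403) in lung and 0.141 CPM (0.0517 to 0.306) in fat, and Sftpa1 at 458 CPM in lung and 0 in fat, at least 6505-fold higher against the level of 3 counts. In lung Sftpc was seen in 1216 of 1401 cells (86.8%), with a median of 2 UMIs and a highest cell of 2170, and 15 cells held 74.8% of its UMIs. Across the 9 lung clusters of at least 30 cells it ran from 566 to 1623 CPM. The cluster of 15 cells led by Ager and Sftpc held 141234 CPM. Without the lung and fat clusters that had 2 or more markers of another cell type among their leading genes, the log2 ratio of Sftpc was 6.39 and that of Sftpa1 3.52, against 8.37 and 5.55 with them. The same values bear on Cxcl15 (93.96 CPM in lung and 0.0938 in fat, log2 ratio 3.36) and Lyz2 (393 CPM in lung and 0.798 in fat, log2 ratio 5.22), which also led or joined that cluster.

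The leading fat genes were low in lung, several of them at a few UMIs or none. Smpd3 (chr8:106252548-106337988), a neutral sphingomyelinase, stood at 893 CPM (884 to 902) in fat and 3.06 CPM (1.53 to 5.47) in lung, a log2 ratio of -6.11. Sfrp2 (chr3:83766321-83774316), a secreted Frizzled-related protein that binds Wnt ligands, stood at 502 CPM (495 to 508) in fat and 2.78 CPM (1.33 to 5.11) in lung (log2 ratio -5.32). Dpp4 (chr2:62330073-62412231), the surface peptidase that marks interstitial progenitors of fat, stood at 566 CPM (559 to 573) in fat and 4.73 CPM (2.75 to 7.57) in lung (log2 ratio -5.29). Ly6c1, a relative of Ly6a on the cell surface, stood at 830.3 CPM in fat and 12.5 in lung (log2 ratio -5.22), and the annexin gene Anxa3 at 1267 CPM in fat and 23.1 in lung (log2 ratio -5.27). Has1 and Tnfaip6 both concern hyaluronan, the first as a synthase and the second as a binding protein. Has1 stood at 348 CPM in fat and 2.78 in lung (log2 ratio -4.81) and Tnfaip6 at 629 CPM in fat and 14.7 in lung (log2 ratio -4.69). Akr1c18, a steroid dehydrogenase that inactivates progesterone, was at 0 in lung and 269 CPM (264 to 274) in fat, at least 323-fold higher in fat. Fosb, an immediate early transcription factor, was the most abundant of the leading fat genes at 1921 CPM in fat and 60.04 in lung (log2 ratio -4.79). Twist1, a transcription factor of mesenchyme, stood at 271 CPM in fat and 1.95 in lung (log2 ratio -4.55). Emilin2, an elastic fibre glycoprotein, stood at 465 CPM in fat and 7.23 in lung (log2 ratio -4.79), Ackr3, a scavenging receptor of Cxcl12, at 609.8 CPM in fat and 15.01 in lung (log2 ratio -4.63), and Sbsn, which encodes suprabasin, at 479 CPM in fat and 6.95 in lung (log2 ratio -4.85). Lrrn4cl had 4 UMIs in lung and Efhd1 had 1, against 287 and 274 CPM in fat.

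**Figure D2:**
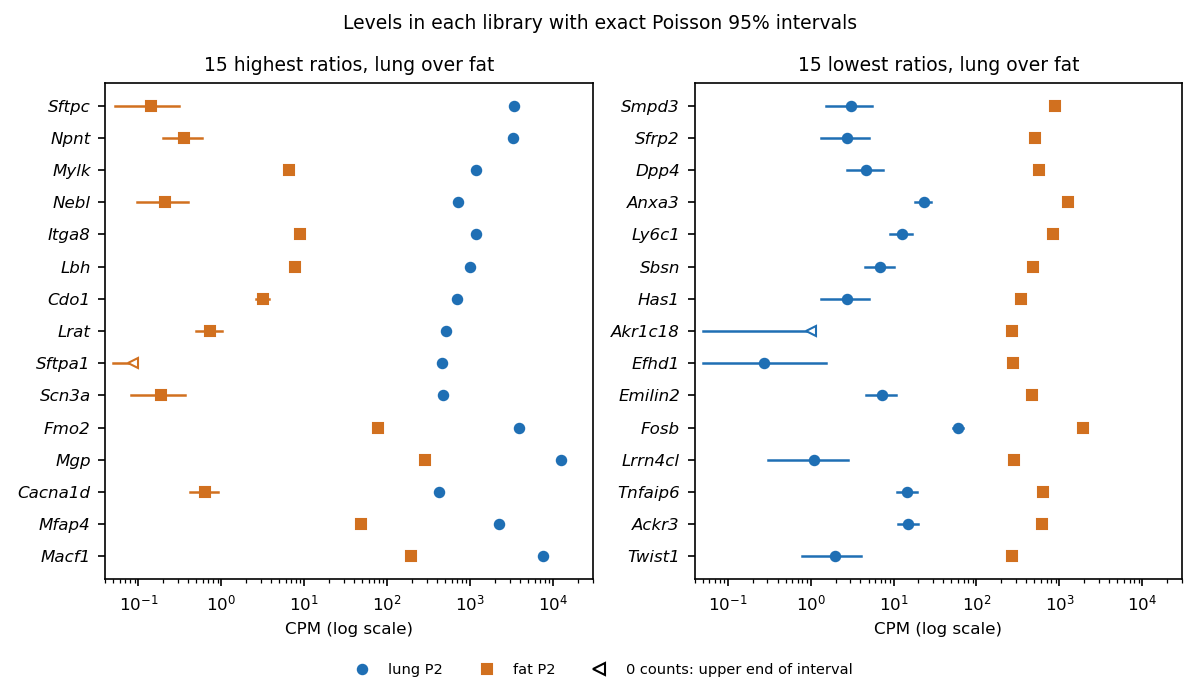
CPM on a log scale of the 15 genes with the highest (left) and the 15 with the lowest (right) log2 ratio of lung over fat, in lung P2 (blue circles) and fat P2 (orange squares), 1 library each. Lines are exact Poisson 95% intervals and an open triangle marks a library with 0 counts. The genes were chosen for their ratios, so the distance between the points is a description.

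Upstream sequence was read for the genes that differed. A TATA box is a core promoter element that lies shortly upstream of the start site of many tissue-restricted and inducible genes. The letters TATAAA were searched on the gene's strand, starting 40 to 20 bases before the start site, in the promoter windows of RefSeq on GRCm38.p6. They were present for 64 of 4820 counted genes with a window (1.33%), for 11 of 251 lung genes (4.38%) and for 10 of 155 fat genes (6.45%), and for 2.41% of all 27025 genes with a window. A match is a description of these letters and not a site shown to act. The 100 bases before the start site are given for 2 lung genes and 4 fat genes that carry the motif, chosen after their values were seen, with TATAAA in capitals and each sequence 5′ to 3′ on the gene's strand.
Lbh (chr17:72918205-72918304, plus strand): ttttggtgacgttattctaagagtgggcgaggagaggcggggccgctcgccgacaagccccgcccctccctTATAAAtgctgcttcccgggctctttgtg
Slit2 (chr5:47983055-47983154, plus strand): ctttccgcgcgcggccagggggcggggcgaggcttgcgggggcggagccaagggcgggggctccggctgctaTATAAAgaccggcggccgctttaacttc
Fos (chr12:85473790-85473889, plus strand): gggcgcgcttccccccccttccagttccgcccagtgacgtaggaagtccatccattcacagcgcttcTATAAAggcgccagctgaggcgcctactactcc
Il33 (chr19:29945690-29945789, plus strand): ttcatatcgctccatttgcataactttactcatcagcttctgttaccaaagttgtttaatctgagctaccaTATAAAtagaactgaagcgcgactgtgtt
Postn (chr3:54361007-54361106, plus strand): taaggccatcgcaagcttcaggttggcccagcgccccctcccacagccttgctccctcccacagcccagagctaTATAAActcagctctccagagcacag
Jpt1 (chr11:115514394-115514493, minus strand): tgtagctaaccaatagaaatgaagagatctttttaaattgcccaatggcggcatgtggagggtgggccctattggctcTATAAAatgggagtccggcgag
Lbh stood at 1005 CPM in lung and 7.62 in fat (log2 ratio 5.85), and Slit2, an axon guidance ligand, at 369 CPM in lung and 43.9 in fat (log2 ratio 2.82). Fos, the immediate early partner of Jun, stood at 5915 CPM in fat and 738 in lung (log2 ratio -2.99), and Il33, an alarmin cytokine of stromal cells, at 205 CPM in fat and 17.5 in lung (log2 ratio -2.96). Postn, the matrix protein periostin, stood at 984 CPM in fat and 129.8 in lung (log2 ratio -2.83), and Jpt1, a microtubule-associated protein, at 311 CPM in fat and 24.7 in lung (log2 ratio -3.21). The motif thus stood upstream of genes that differed in both directions.

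The list counts from here on stand beside 5.8% of all counted genes at least 4-fold higher in lung and 3.51% in fat. Among genes known from alveolar fibroblasts, of 20 counted, 17 were at least 4-fold higher in lung and none in fat, with a median log2 ratio of 4.27. Tcf21, a transcription factor of lung and visceral mesenchyme, stood at 346 CPM (327 to 366) in lung and 0.235 CPM (0.113 to 0.431) in fat. Inmt, a methyltransferase of small amines that is abundant in lung, stood at 5244 CPM in lung and 207 in fat (log2 ratio 4.5998), and Limch1, a regulator of myosin, at 2439.8 CPM in lung and 111 in fat (log2 ratio 4.34). Col13a1, a membrane-anchored collagen used as a marker of alveolar fibroblasts, stood at 387 CPM in lung and 8.704 in fat (log2 ratio 4.41). The receptor Fgfr4 stood at 129 CPM in lung and 1.196 in fat (log2 ratio 3.63) and the carboxylesterase Ces1d at 505 CPM in lung and 18.1 in fat (log2 ratio 4.196). The 3 members under 4-fold were Enpep (187 CPM in lung and 49.2 in fat, log2 ratio 1.73), Scn7a (626 CPM in lung and 216 in fat, log2 ratio 1.49) and Gpc3 (479 CPM in lung and 416 in fat, log2 ratio 0.198).

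Among genes of adventitial fibroblasts, of 14 counted 8 were at least 4-fold higher in fat and none in lung, with a median of -2.38. Pi16, a peptidase inhibitor that marks fibroblasts of the vascular adventitia in many organs, stood at 4269 CPM (4249.9 to 4289) in fat and 219 CPM (204 to 235) in lung (log2 ratio -4.22). Ccl11, the chemokine eotaxin, stood at 492 CPM in fat and 22.2 in lung (log2 ratio -3.96), and Cd248, the surface protein endosialin, at 954 CPM in fat and 52.3 in lung (log2 ratio -3.95). Serpinf1, an antiangiogenic serpin, stood at 1811 CPM in fat and 184 in lung (log2 ratio -3.23). Adh7 was the single member on the lung side, at 55.04 CPM in lung and 26.9 in fat (log2 ratio 0.82). Clec3b, which encodes tetranectin, stood at 2648 CPM in fat and 762 in lung (log2 ratio -1.78), under 4-fold.

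The adipose lists separated into 3 patterns. Genes of the Dpp4-positive interstitial progenitors were mostly fat genes: 9 of 13 counted were at least 4-fold higher in fat, with a median of -3.58, and 1, Limch1, was higher in lung. Sema3c, a secreted semaphorin, stood at 648 CPM in fat and 32.8 in lung (log2 ratio -3.94), and the proprotein convertase Pcsk6 at 289.9 CPM in fat and 15.01 in lung (log2 ratio -3.58). Dact2, a modulator of Wnt and Nodal signalling, was at 0 in lung and 113 CPM (110.3 to 117) in fat, at least 136-fold higher. Fbn1, the microfibril protein fibrillin 1, stood at 1843 CPM in fat and 571 in lung (log2 ratio -1.67), and Wnt2 and Bmp7 lay within 2-fold. Of the 12 counted genes of committed preadipocytes, 3 were at least 4-fold higher in fat and 1 in lung, with a median of -0.58 that was 0.51 within the cells with Y-linked UMIs. Lpl, the lipase that releases fatty acids from lipoproteins, stood at 1157 CPM in fat and 109.8 in lung (log2 ratio -3.28), and Fabp4, a fatty acid carrier, at 65.1 CPM in fat and 2.78 in lung (log2 ratio -2.56), while Sparcl1, a matricellular protein, stood at 1974 CPM in lung and 381 in fat (log2 ratio 2.34). The call of Sparcl1 was lost with TMM scaling (1.91). Genes of the adipogenesis-regulatory stroma of fat had a median of 1.17: 2 of 7 counted, Fmo2 and Mgp, were at least 4-fold higher in lung and none in fat. F3 (55.04 CPM in lung and 72.7 in fat, log2 ratio -0.35) and Gdf10 (71.7 CPM in lung and 117 in fat, log2 ratio -0.63), markers of the same stroma, lay within 2-fold.

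Transcription factors set and keep the identity of mesenchyme by region. Of 11 counted factors of lung and visceral mesenchyme, 5 were at least 4-fold higher in lung and none in fat (median 1.80). Tbx4 (chr11:85886422-85916097), the T-box factor that marks lung mesenchyme from the embryo on, stood at 304 CPM (287 to 323) in lung and 0.235 CPM (0.113 to 0.431) in fat. Tbx2, its neighbour on the chromosome (chr11:85832551-85841948), stood at 733 CPM in lung and 9.74 in fat (log2 ratio 5.23). Foxf2, a forkhead factor of gut and lung mesenchyme, stood at 120.4 CPM in lung and 0.446 in fat (log2 ratio 3.64), and the homeobox cofactor Meis1 at 204 CPM in lung and 30.5 in fat (log2 ratio 2.41). Gli3 (23.1 CPM in lung and 30.97 in fat, log2 ratio -0.31) and Gata6 (31.7 CPM in lung and 42.6 in fat, log2 ratio -0.33) lay within 2-fold. Of 13 counted factors of adipose and somatic mesenchyme, 7 were at least 4-fold higher in fat and 2 in lung (median -2.44). Ebf2, which marks progenitors of the brown and beige lineage, stood at 247 CPM in fat and 3.89 in lung (log2 ratio -4.21), and Ebf1, an early B-cell factor that also acts in adipogenesis, at 978 CPM in fat and 59.8 in lung (log2 ratio -3.82). Klf4 stood at 1790.4 CPM in fat and 98.1 in lung (log2 ratio -4.06) and Osr2, an odd-skipped factor, at 141 CPM in fat and 5.28 in lung (log2 ratio -3.31). Shox2 was at 0 in lung and 72.96 CPM in fat. The 2 on the lung side were Nr2f2 and Meox2. Nr2f2, a nuclear receptor of veins and mesenchyme, stood at 925 CPM in lung and 55.1 in fat (log2 ratio 3.84). Meox2, a homeobox factor, stood at 126 CPM in lung and 20.3 in fat (log2 ratio 2.17). The call of Meox2 was not followed through the alternative settings.

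Hox genes record position along the body axis. Of 39 Hox genes in the matrix 6 were counted, and the anterior ones stood on the lung side. Hoxa5 (chr6:52201754-52204587), needed for lung development, stood at 163 CPM (149.7 to 176) in lung and 8.75 CPM (7.89 to 9.69) in fat. Hoxb5 stood at 68.7 CPM in lung and 3.96 in fat (log2 ratio 2.49), and Hoxb3 at 78.1 CPM in lung and 11.9 in fat (log2 ratio 2.01), a call lost in 4 of 16 settings. Hoxb4 was under 4-fold at 94.8 CPM in lung and 19.3 in fat (log2 ratio 1.84). Hoxa7 lay within 2-fold at 38.6 CPM in lung and 25.7 in fat (log2 ratio 0.45). Hoxc8 (chr15:102990607-102994111), a more posterior gene, had no count in lung and stood at 66.4 CPM (64.02 to 68.9) in fat, at least 79.7-fold higher.

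The matrix lists held members on both sides. Fibrillar and associated collagens had a median of -1.18 over 16 counted, with 2 at least 4-fold higher in each library. Col1a1, Col1a2 and Col3a1, the main fibrillar chains, were all under 4-fold: Col3a1 stood at 8299 CPM in fat and 3176 in lung (log2 ratio -1.38), Col1a2 at 6696 CPM in fat and 2591 in lung (log2 ratio -1.37) and Col1a1 at 5658 CPM in fat and 2579 in lung (log2 ratio -1.13). Col5a3 stood at 528 CPM in fat and 51.1 in lung (log2 ratio -3.14), and on the lung side Col23a1, a transmembrane collagen, stood at 204 CPM in lung and 7.296 in fat (log2 ratio 3.63). The collagen VI chain Col6a3 was level at 816 CPM in lung and 809 in fat (log2 ratio 0.01). Small leucine-rich proteoglycans, which coat collagen fibrils, split by gene: 3 of 9 counted were at least 4-fold higher in lung and 2 in fat. Dcn, decorin, stood at 13910 CPM (13875 to 13945) in fat and 1529 CPM (1488 to 1569.6) in lung (log2 ratio -3.18), and Lum, lumican, at 1509 CPM in fat and 73.7 in lung (log2 ratio -4.18). Bgn, biglycan, stood at 2895 CPM in lung and 441 in fat (log2 ratio 2.69), and Prelp at 1188 CPM in lung and 198 in fat (log2 ratio 2.52).

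Elastic fibre genes split as well, with 5 of 19 counted at least 4-fold higher in lung and 3 in fat (median -0.23, and 0.24 within the cells with Y-linked UMIs). Eln, the elastin monomer, stood at 2748 CPM in lung and 663 in fat (log2 ratio 2.04). This call, close to 4-fold, was not followed through the alternative settings. The latent TGF-beta binding proteins Ltbp4 and Ltbp2 stood on the lung side, Ltbp4 at 1595 CPM in lung and 224 in fat (log2 ratio 2.78) and Ltbp2 at 82.004 CPM in lung and 0.727 in fat (log2 ratio 3.1004). Fbln2, fibulin 2, stood at 526 CPM in fat and 61.4 in lung (log2 ratio -2.91), and Mfap5 at 1873 CPM in fat and 375 in lung (log2 ratio -2.29). Loxl1, a crosslinking oxidase, was level at 792 CPM in lung and 762 in fat (log2 ratio 0.05). Of 16 counted basement membrane genes 2, Npnt and Lamc3, were at least 4-fold higher in lung and 1, Nid1, in fat (median -0.49). Nid1, the laminin linker nidogen 1, stood at 1619 CPM in fat and 273 in lung (log2 ratio -2.53), and Lamc3, a laminin chain, at 89.2 CPM in lung and 11.99 in fat (log2 ratio 2.17). The call of Lamc3 was lost with TMM scaling (1.85), among other settings. Col18a1 (109 CPM in lung and 96.9 in fat, log2 ratio 0.16) and Lamb1 (458 CPM in lung and 381 in fat, log2 ratio 0.26) lay within 2-fold.

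Among 25 counted matrix glycoproteins 5 were at least 4-fold higher in each library (median -0.43). Ctgf, a matricellular target of YAP and TGF-beta, stood at 513 CPM in lung and 17.8 in fat (log2 ratio 4.24), its family member Wisp2 at 308 CPM in lung and 20.7 in fat (log2 ratio 3.37), and Spon1, F-spondin, at 1008 CPM in lung and 67.03 in fat (log2 ratio 3.72). Thbs1 and Thbs2, the related thrombospondins, went opposite ways. Thbs1 stood at 485 CPM in lung and 55.2 in fat (log2 ratio 2.92) and Thbs2 at 174 CPM in fat and 6.39 in lung (log2 ratio -3.49). Smoc2 stood at 344 CPM in fat and 45.6 in lung (log2 ratio -2.67) and Fgl2 at 244 CPM in fat and 30.6 in lung (log2 ratio -2.65). Of 27 counted proteases and inhibitors, 4 were at least 4-fold higher in lung and 8 in fat (median -0.89). All 4 on the lung side were ADAMTS proteases: Adamts10 stood at 444 CPM in lung and 37.3 in fat (log2 ratio 3.26), Adamts15 at 389 CPM in lung and 34.2 in fat (log2 ratio 3.18), Adamts8 at 72.6 CPM in lung and 0.305 in fat (log2 ratio 3.002) and Adamts9 at 93.4 CPM in lung and 9.06 in fat (log2 ratio 2.44). Adamts5, an aggrecanase of the same family, stood at 911 CPM in fat and 90.6 in lung (log2 ratio -3.19). Ctsk, the collagen-degrading cathepsin K, stood at 353 CPM in fat and 33.1 in lung (log2 ratio -3.07), and Plat, tissue plasminogen activator, at 564 CPM in fat and 96.2 in lung (log2 ratio -2.43). Among 8 counted integrins Itga8 and Itga1 were at least 4-fold higher in lung, Itga1 at 121 CPM in lung and 15.7 in fat (log2 ratio 2.34), a call lost in 4 of 16 settings, and Itga11 in fat, at 104 CPM in fat and 13.6 in lung (log2 ratio -2.27). Itga1 and Itga11 both pair with integrin beta 1 to bind collagens.

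Hedgehog signals act through Ptch1, which is at once the receptor and a target gene, and Hhip, a decoy receptor that is also a target. Of 7 counted Hedgehog genes these 2 were at least 4-fold higher in lung and none in fat (median 0.38). Ptch1 stood at 352 CPM in lung and 10.2 in fat (log2 ratio 4.16) and Hhip (chr8:79965851-80058006) at 250.5 CPM in lung and 3.99 in fat (log2 ratio 4.22). Smo, the transducer, lay within 2-fold at 73.1 CPM in lung and 53.8 in fat (log2 ratio 0.38), and the coreceptor Gas1 at 223 CPM in lung and 327 in fat (log2 ratio -0.53). Hhip was not spread evenly in lung: the cluster of 20 cells that it led held 8305 CPM, cluster 6 649.8 and cluster 1 24.1.

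Of 19 counted Wnt genes 2 were at least 4-fold higher in lung and 4 in fat (median -0.28). The 4 on the fat side were Sfrp2, Sfrp4, Dact2 and Wnt10b, of which Sfrp4, a secreted binder of Wnt ligands, stood at 226 CPM in fat and 3.89 in lung (log2 ratio -4.09), and Wnt10b, a ligand that holds back adipogenesis, had 2 UMIs in lung and stood at 54.3 CPM in fat. On the lung side Dkk3 stood at 191 CPM in lung and 11.8 in fat (log2 ratio 3.203) and the ligand Wnt4 at 70.1 CPM in lung and 5.701 in fat (log2 ratio 2.35). Axin2, a target gene of the pathway, was under 4-fold at 87.3 CPM in lung and 19.1 in fat (log2 ratio 1.74). The ligand Wnt5a was level at 61.99 CPM in lung and 65.1 in fat (log2 ratio -0.06).

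Receptors of fibroblast growth factors differed by member. Fgfr3 (chr5:33721674-33737068) stood at 239 CPM (223 to 255) in lung and 0.141 CPM (0.0517 to 0.306) in fat, while Fgfr1, the usual receptor of mesenchyme, lay within 2-fold at 242 CPM in lung and 345 in fat (log2 ratio -0.496). Of 9 counted FGF and HGF genes 3 were at least 4-fold higher in lung and 1 in fat (median 1.42). Hgf, the ligand of Met on epithelium, stood at 108 CPM in lung and 18.2 in fat (log2 ratio 2.06), a call that 6 of 16 alternative settings did not give. Fgf10 (121 CPM in lung and 43.9 in fat, log2 ratio 1.28) and Fgf7 (175 CPM in lung and 44.997 in fat, log2 ratio 1.75), ligands for lung epithelium, were under 4-fold. Axl, the receptor of Gas6, stood at 733 CPM in fat and 61.7 in lung (log2 ratio -3.37), and Gas6 itself at 334 CPM in lung and 118 in fat (log2 ratio 1.42). Of 4 counted PDGF genes 2, Pdgfa and Pdgfra, were at least 4-fold higher in lung, with a median of 1.11 that was -0.25 with TMM scaling. The call of Pdgfra was kept in 11 of 16 settings. Pdgfa, a ligand of PDGFRa, stood at 47.8 CPM in lung and 2.77 in fat (log2 ratio 2.18), a call lost in 6 of 16 settings, and the receptor Pdgfrb was level at 175 CPM in lung and 165 in fat (log2 ratio 0.08).

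The VEGF and angiopoietin list, which concerns signals from stroma to vessels, had 5 of 10 counted genes at least 4-fold higher in lung and 1, Tek, in fat (median 1.81). Angpt1, the ligand that activates Tie2, stood at 401 CPM in lung and 22.01 in fat (log2 ratio 3.68), so that the ligand was higher in lung and its receptor higher in fat. The neuropilins Nrp1 and Nrp2, coreceptors of VEGF and semaphorins, stood at 521 CPM in lung and 94.2 in fat (log2 ratio 2.35) and 313 CPM in lung and 15.3 in fat (log2 ratio 3.67). The call of Nrp1 was lost with TMM scaling (1.93) and with 50 CPM added instead of 10 (1.99). The calls of Vegfd and Angptl4, given next, were not followed through the alternative settings. Vegfd stood at 407 CPM in lung and 87.2 in fat (log2 ratio 2.102), Angptl4 at 178 CPM in lung and 30.1 in fat (log2 ratio 2.23) and Vegfa, under 4-fold, at 296 CPM in lung and 96.6 in fat (log2 ratio 1.52). Vegfb was level at 29.2 CPM in lung and 29.6 in fat (log2 ratio -0.02).

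BMP and TGF-beta genes had a median of 0.23 over 23 counted, which turned to -0.19 with TMM scaling, with 3 at least 4-fold higher in lung and 2 in fat. The 3 were ligands of the BMP family: Bmp5 stood at 278 CPM in lung and 5.21 in fat (log2 ratio 4.24), Bmp4 at 271 CPM in lung and 43.8 in fat (log2 ratio 2.39) and Bmp3 at 301 CPM in lung and 55.01 in fat (log2 ratio 2.26). The calls of Bmp4 and Bmp3 were lost with TMM scaling (1.99 and 1.86) and with 50 CPM added instead of 10 (1.78 and 1.74). The 2 on the fat side were extracellular antagonists or binders, Fst, follistatin, at 277 CPM in fat and 13.1 in lung (log2 ratio -3.64) and Fstl1 at 1914 CPM in fat and 401 in lung (log2 ratio -2.23). The receptors Tgfbr3 (371 CPM in lung and 314 in fat, log2 ratio 0.23) and Tgfbr2 (501 CPM in lung and 676 in fat, log2 ratio -0.42) lay within 2-fold. Of 9 counted IGF genes only Igfbp5, an IGF-binding protein, reached 4-fold, at 3735 CPM in fat and 155 in lung (log2 ratio -4.501). The list's median of 0.12 changed sign in 6 alternative settings, among them TMM scaling (-0.28), and Igf1, the ligand, stood at 179 CPM in lung and 253 in fat (log2 ratio -0.48). Of 7 counted Notch genes only Heyl, a target gene, reached 4-fold, at 93.1 CPM in lung and 7.16 in fat (log2 ratio 2.59), and the ligand Jag1 stood at 11.1 CPM in lung and 65.8 in fat (log2 ratio -1.84). Of all counted genes 5.8% were at least 4-fold higher in lung and 3.51% in fat.

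Guidance genes steer axons and migrating cells. Of 18 counted, 7 were at least 4-fold higher in lung and 1, Sema3c, in fat (median 0.93). The receptor Robo2 stood at 277 CPM in lung and 2.67 in fat (log2 ratio 4.502) and its ligand Slit2 at 369 CPM in lung and 43.9 in fat (log2 ratio 2.82), both on the lung side, while the ligand Slit3 was level at 219 CPM in lung and 218 in fat (log2 ratio 0.004). Unc5c, a netrin receptor, stood at 162 CPM in lung and 0.258 in fat (log2 ratio 4.06). Plxnc1, a semaphorin receptor, stood at 79.5 CPM in lung and 1.78 in fat (log2 ratio 2.93), and Ntn4 was level at 60.3 CPM in lung and 51.1 in fat (log2 ratio 0.202).

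Retinoid genes had 4 of 11 counted at least 4-fold higher in lung and 1 in fat (median 1.04). Besides Lrat, these were Aldh1a1, which makes retinoic acid, at 862 CPM in lung and 83.6 in fat (log2 ratio 3.22), Adh1, an alcohol dehydrogenase, at 327 CPM in lung and 55.1 in fat (log2 ratio 2.37), and Rbp4, the retinol carrier of plasma, at 115 CPM in lung and 20.6 in fat (log2 ratio 2.03). The call of Adh1 was lost with TMM scaling (1.97) and with 50 CPM added instead of 10 (1.84). Rbp4, closer to 4-fold than Adh1, was not followed through the alternative settings. Aldh1a3, another enzyme for the same step as Aldh1a1, stood at 159 CPM in fat and 1.11 in lung (log2 ratio -3.93). The 2 enzymes thus differed between the libraries in opposite directions. The receptor Rarg was level at 67.8 CPM in lung and 62.9 in fat (log2 ratio 0.09). Detoxification genes had 7 of 21 counted at least 4-fold higher in lung and 2 in fat (median 0.67). Gsta3, a glutathione transferase, stood at 259 CPM in lung and 2.63 in fat (log2 ratio 4.41), and Sod3, the extracellular superoxide dismutase, at 1424 CPM in lung and 210.2 in fat (log2 ratio 2.703). The 2 on the fat side were the metallothioneins Mt1 (1590.1 CPM in fat and 96.2 in lung, log2 ratio -3.91) and Mt2 (409 CPM in fat and 31.97 in lung, log2 ratio -3.32). Sod2 (49.2 CPM in lung and 53.1 in fat, log2 ratio -0.09) and Gstm1 (792 CPM in lung and 716 in fat, log2 ratio 0.14) were level.

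Of 18 counted lipid genes 1 was at least 4-fold higher in lung and 3 in fat, beside 5.8% and 3.51% of all counted genes. The list's median was -0.17, of which the sign changed in 3 alternative settings. G0s2, an inhibitor of the lipase Pnpla2, stood at 737 CPM in lung and 55.5 in fat (log2 ratio 3.51), and Apod, apolipoprotein D, at 761 CPM in fat and 63.1 in lung (log2 ratio -3.399). Insig1 (87.3 CPM in lung and 86.9 in fat, log2 ratio 0.01) and Scd2 (374 CPM in lung and 399.9 in fat, log2 ratio -0.096), genes of sterol and fatty acid synthesis, were level. Of 6 counted prostaglandin genes, Ptgs2, the inducible cyclooxygenase, stood at 95.6 CPM in fat and 2.22 in lung (log2 ratio -3.11), and Ptgfr, the receptor of prostaglandin F2 alpha, at 73.9 CPM in lung and 6.73 in fat (log2 ratio 2.33); Ptgis, prostacyclin synthase, was under 4-fold at 439.8 CPM in lung and 123 in fat (log2 ratio 1.76). The list's median was -0.55, and it changed sign in 2 settings, to 0.39 within the cells with Y-linked UMIs.

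Immediate early and heat shock genes are induced quickly and for a short time by many stimuli. Of 24 counted, 10 were at least 4-fold higher in fat, 14 were under 4-fold and none was at least 4-fold higher in lung (median -1.85). Atf3 stood at 724 CPM in fat and 25.02 in lung (log2 ratio -4.39), Socs3, an inhibitor of cytokine receptors, at 638 CPM in fat and 28.9 in lung (log2 ratio -4.06), Klf2 at 836 CPM in fat and 57.3 in lung (log2 ratio -3.65) and Jun at 4061 CPM in fat and 498 in lung (log2 ratio -3.002). Dusp1 (1098 CPM in lung and 1133 in fat, log2 ratio -0.05) and Ier5 (100.1 CPM in lung and 109 in fat, log2 ratio -0.11) were level, and Nr4a1 stood on the lung side at 333 CPM in lung and 149.8 in fat (log2 ratio 1.101). Within fat, Fosb ran from 37.6 CPM in cluster 13 to 5094 in cluster 14.

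Of 16 counted chemokines and cytokines 8 were at least 4-fold higher in fat and 2 in lung (median -2.01). Cxcl13, an attractant of B cells, stood at 243 CPM in fat and 7.78 in lung (log2 ratio -3.83), and Cxcl1, an attractant of neutrophils, at 169.6 CPM in fat and 1.11 in lung (log2 ratio -4.01). On the lung side stood Cxcl15, described with the surfactant genes above, and Tnfsf13b, the B-cell survival factor BAFF, at 109.8 CPM in lung and 18.04 in fat (log2 ratio 2.095). The call of Tnfsf13b was not followed through the alternative settings. Cxcl12, the ligand of Ackr3, was under 4-fold at 115 CPM in lung and 262 in fat (log2 ratio -1.12). Complement genes had 3 of 11 counted at least 4-fold higher in lung and 1 in fat (median -0.59). Cd55, a membrane-bound inhibitor of the cascade, stood at 436 CPM in fat and 37.8 in lung (log2 ratio -3.22). C3, the central component, was under 4-fold at 3144 CPM in fat and 1034 in lung (log2 ratio -1.596), and C4b level at 385 CPM in lung and 349 in fat (log2 ratio 0.14). Interferon genes had 2 of 16 counted at least 4-fold higher in fat, Isg15 (70.3 CPM in fat and 6.12 in lung, log2 ratio -2.32) and Ifit1 (56.8 CPM in fat and 6.67 in lung, log2 ratio -2.003), and none in lung (median -1.07). The call of Ifit1 was lost in 5 of 16 settings and that of Isg15 in 2. Of all counted genes 3.51% were at least 4-fold higher in fat and 5.8% in lung. Of 11 counted MHC genes H2-Q4 stood at 127 CPM in fat and 10.8 in lung (log2 ratio -2.72) and Cd74, the invariant chain of class II, at 73.7 CPM in lung and 10.6 in fat (log2 ratio 2.02), with a median of -0.90. The call of Cd74 was lost in 10 of 16 alternative settings.

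Of 12 counted contractile genes 8 were at least 4-fold higher in lung and none in fat (median 2.53). Acta2, smooth muscle actin, stood at 224 CPM in lung and 9.197 in fat (log2 ratio 3.61), and Tagln, transgelin, at 239.9 CPM in lung and 6.83 in fat (log2 ratio 3.89). The UMIs of Acta2 came mostly from few cells: lung cluster 9 with 34 cells held 6647 CPM of Acta2 and the cluster of 20 cells led by Hhip 2867, while cluster 1 held 4.25 and the highest of the 16 fat clusters 206. Mylk was spread more widely, since cluster 1 held 1779 CPM and cluster 9 1155. Cald1 was level at 558 CPM in lung and 504 in fat (log2 ratio 0.14), and Myl9, a myosin light chain, stood at 185 CPM in fat and 114 in lung (log2 ratio -0.65). Among 16 counted vasoactive genes 5 were at least 4-fold higher in lung and 3 in fat (median 1.52). On the lung side Adra1a, an adrenergic receptor, stood at 258 CPM in lung and 0.164 in fat (log2 ratio 4.72), Pde5a, the cGMP phosphodiesterase, at 235 CPM in lung and 6.19 in fat (log2 ratio 3.92), Ednra, the endothelin receptor A, at 305 CPM in lung and 13.98 in fat (log2 ratio 3.71), and Gucy1a1, a subunit of the nitric oxide receptor, at 209.6 CPM in lung and 15.2 in fat (log2 ratio 3.13). On the fat side Ace, the angiotensin-converting enzyme, stood at 389 CPM in fat and 22.8 in lung (log2 ratio -3.604), and Ramp2, a partner of the adrenomedullin receptor, at 267 CPM in fat and 18.6 in lung (log2 ratio -3.27). Adm, adrenomedullin itself, was level at 111 CPM in lung and 89.4 in fat (log2 ratio 0.29).

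Surface markers used to sort stromal cells had 4 of 15 counted at least 4-fold higher in lung and 5 in fat. Their median of 0.31 turned to -0.64 with TMM scaling and to -0.37 with mitochondrial and ribosomal protein genes left out of the library sum. Alcam (CD166) stood at 354 CPM in lung and 11.8 in fat (log2 ratio 4.06), Cd82 at 227 CPM in lung and 6.24 in fat (log2 ratio 3.86), Lepr, the leptin receptor, at 114 CPM in lung and 1.22 in fat (log2 ratio 3.46), and Vcam1 at 343 CPM in lung and 39.98 in fat (log2 ratio 2.82). Cd34 stood at 1023 CPM in fat and 222 in lung (log2 ratio -2.15). Icam1 (84.8 CPM in lung and 66.5 in fat, log2 ratio 0.31) and Itgb1 (501 CPM in lung and 329 in fat, log2 ratio 0.59) lay within 2-fold. Of 15 proliferation genes 1, Hmgb2, was counted, at 45.9 CPM in lung and 40.1 in fat (log2 ratio 0.16).

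**Figure D3:**
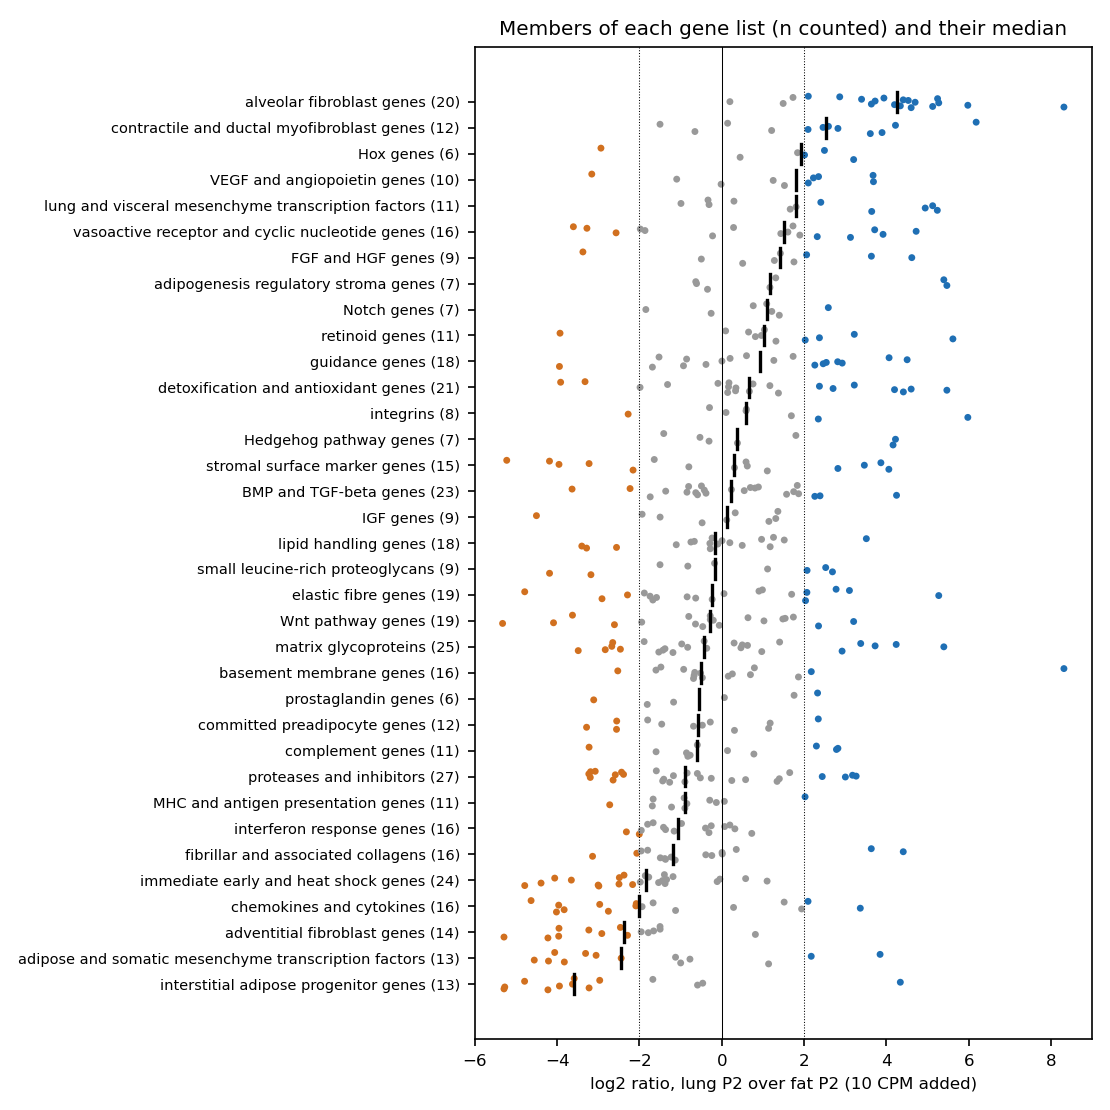
Log2 ratios of lung over fat (10 CPM added) for the counted members of each gene list with at least 6 counted, 1 point per gene and the number counted in brackets. Black bars are list medians, dotted lines 4-fold, and colours as called (blue lung, orange fat). The alveolar fibroblast genes have the highest median, 4.27, and the interstitial adipose progenitor genes the lowest, -3.58, beside 0.15 for all 6101 genes.

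The genes were then compared between clusters made within each library. The comparison uses the summed UMIs of each cluster and does not say that every cell carries a gene. Lung had 9 and fat 16 clusters of at least 30 cells. Of the 354 lung genes, 102 (28.8%) were higher in the lowest lung cluster than in the highest fat cluster, and 64 of the 214 fat genes (29.9%) were separated the other way. Over all 6101 counted genes 323 (5.29%) were separated in either direction. Lung genes of this kind were Npnt, Itga8, Lrat, Tcf21, Tbx4, Hoxa5 and Macf1. Npnt ran from 100.2 to 5545 CPM over the lung clusters and reached 2.26 CPM in fat, and Tbx4 ran from 54.9 to 568 CPM and reached 19.6. Fat genes of this kind were Dpp4, Sfrp2, Twist1, Ebf2, Prrx1, Klf4 and Hoxc8. Twist1 ran from 127 to 401 CPM over the fat clusters and reached 15.5 CPM in lung. Mgp, Inmt, Dcn, Pi16 and Ly6a overlapped between clusters of the 2 tissues. All 12 fibroblast markers stood at 100 CPM or more even in the fat clusters led by genes of epithelial, B or Schwann cells.

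**Figure D4:**
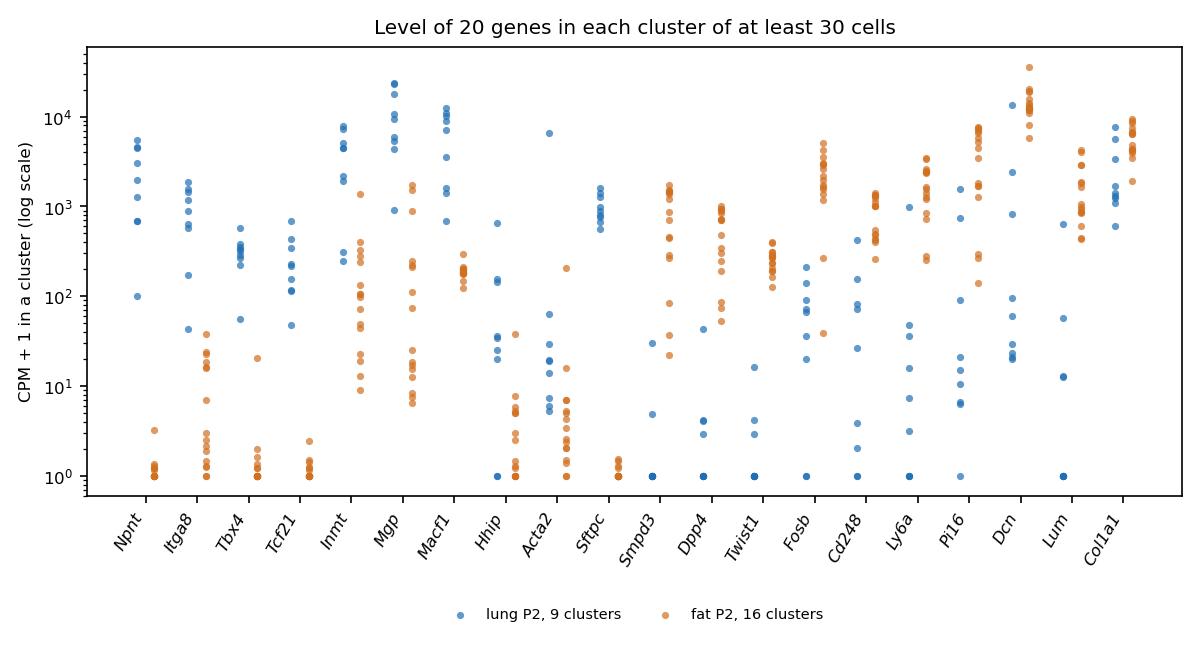
CPM plus 1 on a log scale of 20 genes in each cluster of at least 30 cells, 9 of lung P2 (blue) and 16 of fat P2 (orange), 1 point per cluster. Npnt, Itga8, Tbx4, Tcf21, Macf1 and Sftpc do not overlap between the tissues on the lung side and Dpp4 and Twist1 on the fat side. Dcn reaches 13558 CPM in 1 lung cluster.

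Among the lung clusters of at least 30 cells, cluster 7 came closest to fat. It held 75 lung cells (5.35%), with a median of 3867 UMIs, and was led by Ly6a, Scara5, Dcn, Lum, Serpinf1 and Ccl11. Of the 214 genes higher in fat, 50 (23.4%) stood in this cluster at 50% or more of their level in the whole fat library, with 10 CPM added to both. Cluster 6, with 90 cells, had 10 such genes (4.67%), and clusters 1 to 5 had 0. Clusters 8 and 9 had 18 and 21, from 70406 and 84848 UMIs against 309412 in cluster 7. In cluster 7 Dcn stood at 13558 CPM, close to the 13910 of fat, against 19.8 in cluster 1. Ly6a stood at 989 CPM against 1940.3 in fat, Pi16 at 1561 against 4269, and Col1a1 at 7682 against 5658. Tek stood at 61.4 CPM in cluster 7 and at 4.25 in cluster 1. These cells still differed from fat in other genes. Dpp4 stood at 42.02 CPM against 566, Ebf2 at 45.2 against 247, Smpd3 at 29.1 against 893, and Hoxc8 at 0. Cluster 7 was also low in the genes that led the lung library: Itga8 stood at 42.02 CPM against 1871 in cluster 1, and Lrat at 25.9 against 777, while Mgp was high at 17776 CPM.

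**Figure D5:**
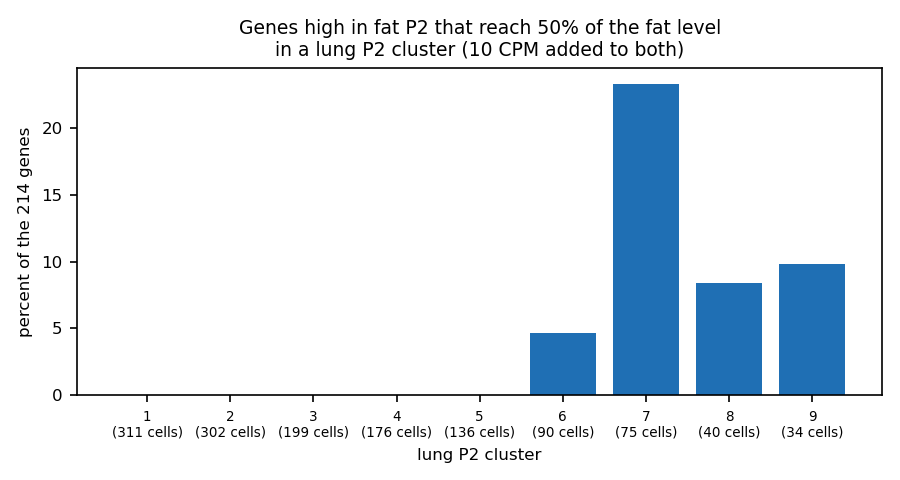
Percent of the 214 genes higher in fat P2 that reached 50% or more of the fat level in each lung P2 cluster of at least 30 cells (x axis, with the number of cells; 10 CPM added to both levels). Cluster 7 stands highest at 23.4% and clusters 1 to 5 at 0.

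In fat the same count was made for the lung genes. Among clusters of at least 30 cells it was highest in cluster 9. Cluster 9, with 436 cells and led by Igfbp2, Tnc and Pla2g7, held 27 of the 354 lung genes (7.63%) at 50% or more of the lung level. A smaller cluster of 21 cells, led by Acta2, Myh11 and Tagln, held 52 (14.7%). Cluster 8, with 498 cells and led by Fmo2 and F3, held 6 (1.69%). In cluster 8 Fmo2 stood at 731 CPM against 3856 in the lung library, Mgp at 1753 against 12326 and Inmt at 1391 against 5244. Cluster 8 led the fat clusters in all 3 genes and yet lay below the lung library in each.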

How the data were processed

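The deposited matrices hold raw UMI counts per gene and barcode, made by the authors with Cell Ranger 3.1.0 on the mouse build mm10, per the submitters' processing notes. Libraries came from a 10x Genomics kit that reads the 3′ ends of transcripts, per the labels. The annotation release is not given in the sources used here. Of 31053 entries, those with the same symbol (35 symbols) were added up.

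Barcodes were kept by the limits given with the results, UMIs were summed per library and scaled to CPM, and log2 ratios were taken after adding 10 CPM. Genes with a mean of 25 CPM or more were counted, and at least 4-fold was the size rule. With 1 library per tissue no test was run and no p-value is given. Cells were thinned to 2000 UMIs for shares of cells, which left out 652 lung and 690 fat cells. Doublets were not removed except as an alternative with the highest Scrublet scores. Each library was clustered alone in scanpy 1.11.5 (2000 variable genes, 30 components, 15 neighbours, Leiden resolution 1), and leading genes needed 50 CPM. TMM factors came from edgeR 4.0.16.

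The members, the 38 gene lists and the 18 marker lists were chosen with earlier results of these data known, so they are not independent evidence. Named genes are the 15 highest and 15 lowest ratios, leaving out mt-, Rpl, Rps, Gm and Rik names, the gate and sex-linked genes, the 4 largest and 2 smallest absolute ratios within each list, where so many were counted, and the leading genes of clusters. Any other gene was named after its values were seen. Gene coordinates were looked up by ID in GENCODE vM21 (GRCm38), and upstream sequences from RefSeq on GRCm38.p6. Symbols that share reads with a near-identical copy, such as Ly6c1, H2-Q4 and the ribosomal protein genes, are uncertain.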

Additional observations from a re-analysis of the deposited data

How the results depend on the processing

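No call of the 568 changed sign in any of the 17 alternative settings in which the gene was still counted. The number of genes at least 4-fold higher in lung and in fat stayed within 1.5 times of 354 and 214 except in 3 settings. With 50 CPM added instead of 10 there were 136 and 97 genes, with a 2-fold rule 894 and 638, and with TMM scaling the fat count was 364 beside 263 for lung. The settings with 1 CPM added (453 and 281), thinning to 1000 UMIs (374 and 278) and mitochondrial and ribosomal protein genes left out of the library sum (348 and 276) moved the counts less. Cells with Y-linked UMIs alone gave 408 and 249, of which 314 and 183 were calls of the whole libraries. This setting, the Xist cells and the removal of clusters with markers of other cell types (347 and 219) were chosen after seeing the data. The removal was uneven between the libraries. Lung cluster 9, led by Acta2 and Myh11, was kept, while the fat cluster of 21 cells led by the same genes was left out. Acta2 then had a log2 ratio of 4.33, against 3.61 with all clusters. Lung cluster 5, with 136 cells, was left out for 2 erythroid genes. Of 126 named genes past 4-fold, 37 fell under it in at least 1 of 16 settings that kept the 4-fold rule. Genes outside the naming rules entered the counts but were not followed singly. Clusters at resolution 0.5 separated 151 and 84 of the called genes in place of 102 and 64. Over all 6101 counted genes they separated 820 (13.4%) in place of 323 (5.29%). No paired analysis was possible because each tissue has 1 library. Depth limits the lung side: 3 counts are 0.834 CPM there and 0.0704 CPM in fat, and a median lung cell holds 2118 UMIs.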
